A study of Arabidopsis arenosa x Arabidopsis thaliana and Arabidopsis thaliana and Arabidopsis arenosa with 5 samples.

Results

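The light-harvesting complex II (LHCII) is the main antenna of photosystem II in plant leaves. The 9 nuclear genes that encode the LHCB1, LHCB2 and LHCB3 subunits of its trimers were taken by locus, under a rule that uses no measured value, and are 9 of the 32313 genes listed in the parental tables. The set was chosen with earlier results of these data known. All 9 genes stand in every table. They were followed in mRNA of rosette leaves, taken before bolting from 5 kinds of tetraploid Arabidopsis. These were a resynthesized F1 allotetraploid, an F8 allotetraploid, A. suecica (a natural allotetraploid of these lineages), and an autotetraploid of each parental species, A. arenosa (Care-1) and A. thaliana (Landsberg erecta). Every plant thus carried 4 chromosome sets, and all were grown at 22 °C in 16 h of light and 20 °C in 8 h of dark. Leaves of the F1, F8, A. suecica and A. arenosa came from plants 6 to 7 weeks old, and those of A. thaliana from plants 3 to 4 weeks old, so age and genotype cannot be told apart in any comparison with A. thaliana. The tables held 3 replicate columns for the F1 and for each parent, while F8 and A. suecica had 1 library each. The labels name neither the plants crossed to make the F1 nor the source of the replicate columns, so p-values measure the spread between these columns, which may be technical.

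LHCII proteins bind chlorophyll a and chlorophyll b, pass the absorbed energy to the photosystem II core, and are made from nuclear genes as precursors that enter the chloroplast. LHCB1 is the most abundant subunit, LHCB2 is the subunit whose phosphorylation by the kinase STN7 moves LHCII between the photosystems (state transitions), and LHCB3 is a minor subunit that lacks the phosphorylated site. Transcripts of these genes are known for their high level in green tissue and for a daily rhythm set by light and by the circadian clock, in which the morning factor CCA1 was first described as a protein binding an LHCB1 promoter.

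By position in TAIR10.1 the LHCB1 genes form a pair of clusters, each gene with 1 exon. LHCB1.2 (AT1G29910, chromosome 1, 10472280 to 10473502, minus strand), LHCB1.1 (AT1G29920, 10474656 to 10475969, minus strand) and LHCB1.3 (AT1G29930, 10477885 to 10479114, plus strand) stand side by side. On chromosome 2, LHB1B2 (AT2G34420, 14522524 to 14523568, minus strand) lies next to LHB1B1 (AT2G34430, 14524607 to 14525918, plus strand). LHCB2.2 (AT2G05070, 1799234 to 1800472, minus strand) and LHCB2.1 (AT2G05100, 1822990 to 1824480, minus strand) lie near each other on chromosome 2, and LHCB2.3 (AT3G27690, 10255906 to 10257489, plus strand) on chromosome 3; each has 2 exons. LHCB3 (AT5G54270, chromosome 5, 22038165 to 22039568, plus strand) has 3 exons. The coding sequences are 798 to 804 bases long.

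The members differ in how far a short read can tell them apart, and the reads were 60 to 83 bases long. Over 804 aligned coding columns of the 5 LHCB1 genes, 140 were variable. The 60-base window with the fewest variable positions (2) shows how a read can match several genes, and the window with the most (15) shows where they separate. The A. thaliana reference sequences below are RefSeq's on TAIR10.1, 5′ to 3′ on the coding strand, with capitals where a gene differs from LHCB1.3. Those of the window with the fewest variable positions are
LHCB1.3: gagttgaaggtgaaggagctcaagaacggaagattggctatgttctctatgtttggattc
LHCB1.1: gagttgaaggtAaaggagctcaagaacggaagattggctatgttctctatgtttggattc
LHCB1.2: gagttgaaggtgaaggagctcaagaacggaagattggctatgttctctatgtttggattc
LHB1B1: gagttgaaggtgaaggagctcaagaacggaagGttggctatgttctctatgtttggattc
LHB1B2: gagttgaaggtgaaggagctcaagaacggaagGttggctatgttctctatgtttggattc
and those of the window with the most variable positions are
LHCB1.3: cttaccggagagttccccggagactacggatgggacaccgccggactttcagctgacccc
LHCB1.1: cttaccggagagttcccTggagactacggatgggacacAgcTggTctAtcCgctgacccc
LHCB1.2: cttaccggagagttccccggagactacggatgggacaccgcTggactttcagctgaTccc
LHB1B1: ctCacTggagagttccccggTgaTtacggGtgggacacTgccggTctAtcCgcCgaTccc
LHB1B2: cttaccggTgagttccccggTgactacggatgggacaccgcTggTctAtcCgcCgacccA

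In the window with the fewest variable positions, LHCB1.2 and LHCB1.3 have the same sequence, and so do LHB1B1 and LHB1B2. In the window with the most, LHB1B1 differs from LHCB1.3 at 11 positions and LHB1B2 at 8. Over whole coding sequences, identity was 96.6% between LHCB2.1 and LHCB2.2, 96.4% between LHCB1.2 and LHCB1.3, and 92.5% between LHB1B1 and LHB1B2. Of the 60-base windows of each A. thaliana transcript, the share found unchanged in another member was 24.4% for LHCB2.2, 19.6% for LHCB2.1, 15.3% for LHCB1.1, 13.4% for LHB1B2, 12.04% for LHCB1.3, 10.5% for LHB1B1 and 6.70% for LHCB1.2. LHCB2.3 and LHCB3 shared none. How the authors counted reads that match several genes, and how they divided reads between alleles, was not given in the sources used here. Values of single genes within each cluster are uncertain where such reads were split.

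**Figure D1:**
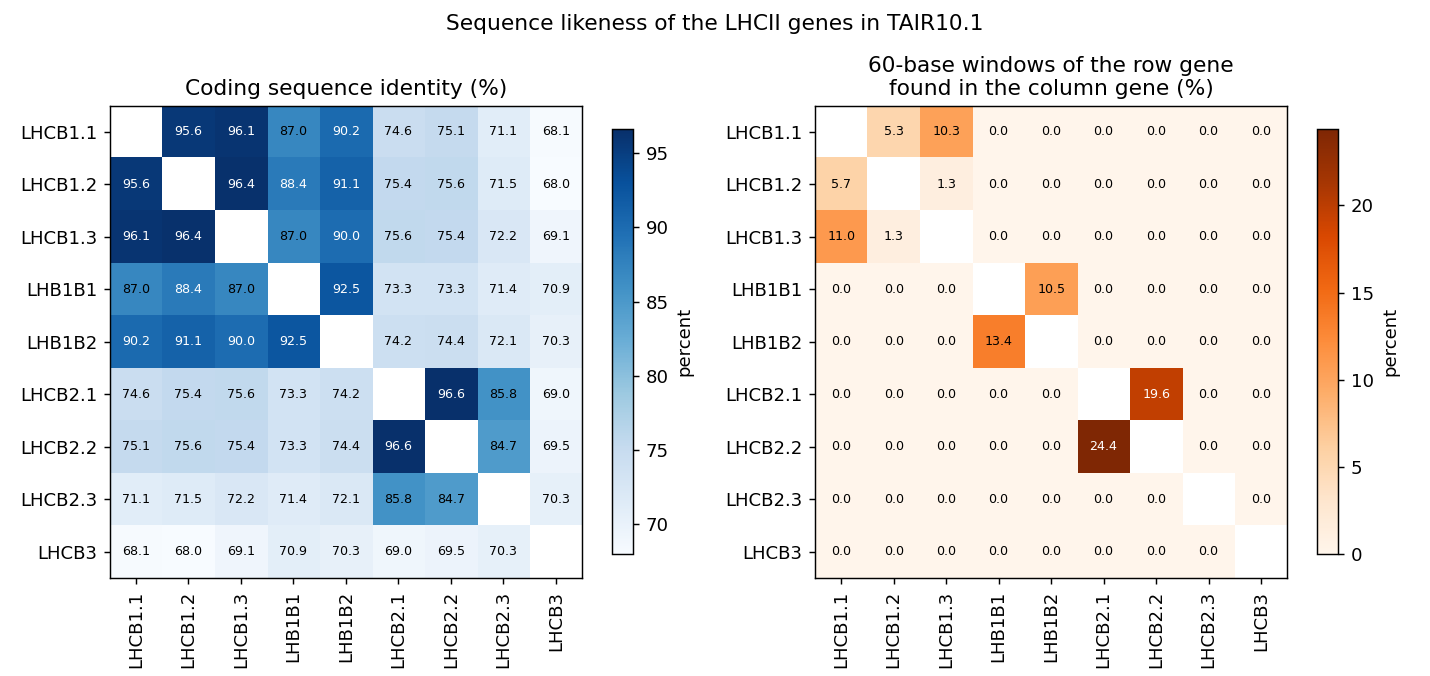
Pairwise coding sequence identity (left, %) and percent of the 60-base windows of the row gene's transcript found in the column gene (right) for the 9 LHCII genes in the A. thaliana reference TAIR10.1. Shared windows occur inside 3 sets (LHCB1.1 to LHCB1.3, LHB1B1 with LHB1B2, LHCB2.1 with LHCB2.2), while LHCB2.3 and LHCB3 have 0 in every cell.

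Values are RPKM, a read density corrected for transcript length and library size, so levels can be compared between genes of different length. In the allotetraploids each gene has an A. arenosa and an A. thaliana allele value, which were added to give its total. Depth is unknown, and differences of low values are understated on the log2(RPKM + 1) scale used below. Leaf markers were high in every library (RBCS1A, a Rubisco small subunit gene, had 1170 to 12983 RPKM). The flower genes AP1, AP3, PI and AG did not exceed 0.68 RPKM in the parents, the root hair genes COBL9 and RHD6 were listed at 0 there, and SCR, active in root endodermis and in leaf bundle sheath, had 4.42 to 25.9 RPKM. The senescence gene SAG12 was listed at 0 in the parents, and SAG13 had 1.70 to 12.5 RPKM in A. arenosa and 6.66 to 62.5 RPKM in A. thaliana. ORE1 had 0.161 to 2.73 RPKM in A. arenosa and 2.36 to 4.43 RPKM in A. thaliana. SEN1, the senescence gene with F1 values, had 8.53, 38.45 and 40.4 RPKM in F1 replicates 1, 2 and 3 and 8.51 RPKM in F8. In the parents SEN1 had 2.62 to 11.1 RPKM (A. arenosa) and 10.7 to 24.9 RPKM (A. thaliana). Transcripts of ribosomal RNA genes took 59.6% of the summed RPKM of A. arenosa replicate 1 and 0.232% to 2.56% of that of the other parental columns. Totals of 1000 RPKM or more all had 6 significant digits in F1 replicate 3 (67 of 67), F8 (77 of 77) and A. suecica (81 of 81), against 1 of 8 in F1 replicate 1 and 2 of 40 in F1 replicate 2, so the columns were not all written in the same way.

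Together the 9 genes took a large part of the leaf transcript pool, and that part differed widely between the replicate columns of the F1 and of A. thaliana. Their summed level was 7409, 30366 and 51755 RPKM in F1 replicates 1, 2 and 3, 63382 RPKM in F8 and 74069 RPKM in A. suecica, against 54332, 59616 and 53377 RPKM in A. arenosa and 11428, 43409 and 82139 RPKM in A. thaliana replicates 1, 2 and 3. The column numbered 1 was the lowest of its group for each of the 9 genes in the F1 and in A. thaliana, and the column numbered 3 the highest. In A. arenosa the columns lay close together. As a share of the summed RPKM of all genes listed in every table, the 9 genes made up 2.2%, 7.0% and 9.0% in the F1 columns, 10.6% in F8, 11.7% in A. suecica, 10.8%, 10.8% and 9.1% in A. arenosa, and 4.1%, 11.2% and 13.1% in A. thaliana. In bulk leaf RNA, fewer mesophyll cells and less RNA per cell cannot be told apart.

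**Figure D2:**
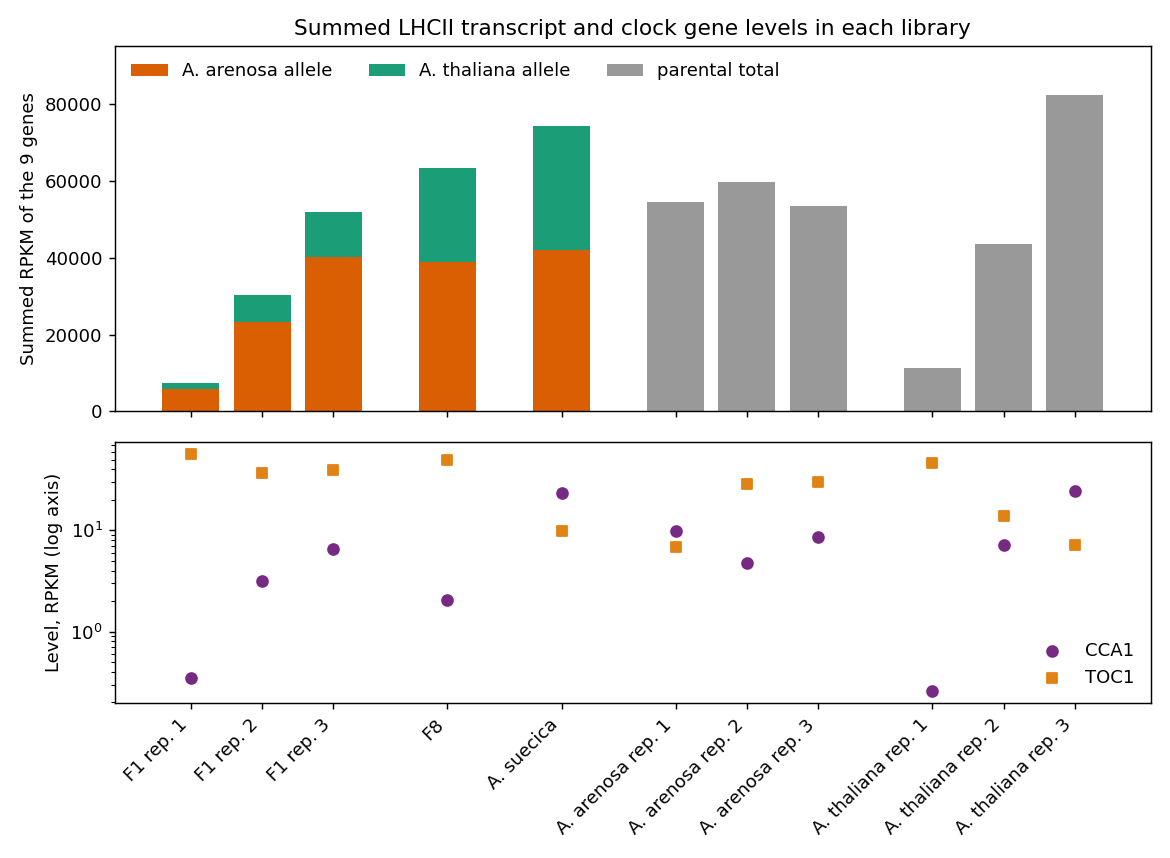
Summed RPKM of the 9 LHCII genes per library (top, with the A. arenosa and A. thaliana alleles stacked in the allotetraploids) and RPKM of the clock genes CCA1 and TOC1 in the same libraries (bottom, log axis). The lowest sums, 7409 RPKM in F1 replicate 1 and 11428 RPKM in A. thaliana replicate 1, belong to the columns with the lowest CCA1 values, 0.349 and 0.258 RPKM. F8, with 2.04 RPKM of CCA1, has a sum of 63382 RPKM.

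Among 9 clock genes, CCA1, TOC1 and PRR7 differed between these columns in a like way in the F1 and in A. thaliana, and PRR5, GI and LUX did not. CCA1, the morning-phased clock factor, had 0.349, 3.18 and 6.55 RPKM in F1 replicates 1, 2 and 3, 2.04 RPKM in F8 and 23.7 RPKM in A. suecica, against 9.91, 4.73 and 8.56 RPKM in A. arenosa and 0.258, 7.23 and 24.5 RPKM in A. thaliana. TOC1, its evening-phased counterpart, had 57.0, 36.7 and 39.9 RPKM in the F1, 49.6 RPKM in F8 and 9.94 RPKM in A. suecica, against 6.86, 28.8 and 30.0 RPKM in A. arenosa and 46.9, 13.9 and 7.12 RPKM in A. thaliana. In F1 and A. thaliana, the column with the lowest LHCII sum thus had the lowest CCA1 and the highest TOC1. Of the other clock genes in A. thaliana, the morning genes LHY (0.136, 1.14 and 3.70 RPKM) and PRR9 (0.643, 8.35 and 8.71 RPKM) were lowest in replicate 1, and the evening genes ELF4 (96.2, 8.98 and 4.12 RPKM) and LUX (23.7, 5.12 and 7.01 RPKM) highest. PRR7, which acts during the day after PRR9, was lowest in replicate 1 of both groups, with 26.4, 53.9 and 84.5 RPKM in the F1 and 31.9, 56.7 and 71.4 RPKM in A. thaliana. The later-phased PRR5 and GI ran in opposite directions in the 2 groups. PRR5 had 16.2, 50.9 and 61.9 RPKM in the F1 and 18.9, 14.7 and 13.4 RPKM in A. thaliana, and GI had 19.8, 34.1 and 40.2 RPKM in the F1 and 20.7, 14.8 and 15.97 RPKM in A. thaliana, so replicate 1 was the lowest for both in the F1 and the highest for both in A. thaliana. LUX had 26.5, 33.5 and 22.3 RPKM in the F1, where replicate 2 was the highest, and LHY, PRR9 and ELF4 have no F1 value. The Rubisco gene RBCS1A also moved with the LHCII sum, with 1572, 3825 and 7693 RPKM in the F1 and 1170, 3388 and 12983 RPKM in A. thaliana replicates 1, 2 and 3. In A. arenosa replicates 1, 2 and 3, some clock genes differed widely at LHCII sums of 54332, 59616 and 53377 RPKM. PRR5 had 6.57, 41.9 and 40.4 RPKM there, LUX 1.19, 15.2 and 11.96 RPKM, and PRR7, which differed less, 38.03, 36.2 and 50.9 RPKM. Replicate 2 had the lowest CCA1 but the highest LHCII sum, and replicate 3 the highest TOC1 and the lowest sum. F8, with 2.04 RPKM of CCA1 and 49.6 RPKM of TOC1, had an LHCII sum of 63382 RPKM. When leaves were collected was not given in the sources used here, and the part of time of day in the LHCII levels was not tested.

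LHCB1, the main trimer subunit, supplied most of the transcript, at 86.0%, 80.99% and 79.8% of the LHCII sum in the F1 columns, 83.1% in F8, 74.5% in A. suecica, 75.4%, 79.0% and 77.6% in A. arenosa and 90.1%, 80.8% and 79.6% in A. thaliana. LHCB1.3, the highest LHCB1 gene in most columns, had a total of 2775, 9833 and 15913 RPKM in the F1, 19678 RPKM in F8 and 19259.7 RPKM in A. suecica, against 12941, 18986 and 13711 RPKM in A. arenosa and 4109, 12249.9 and 23805 RPKM in A. thaliana. LHB1B2 had 1511, 5694 and 11094 RPKM in the F1, 12650.3 RPKM in F8 and 18704 RPKM in A. suecica, against 17236, 16689 and 14509 RPKM in A. arenosa and 2909, 9038 and 13022 RPKM in A. thaliana. LHB1B2 was thus higher in each A. arenosa column than in any A. thaliana or F1 column, while the LHCB1.3 columns of the parents overlapped.

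LHCB1.2 had 1096, 4098 and 6698 RPKM in the F1, 11111 RPKM in F8 and 9135 RPKM in A. suecica, against 4669, 5032 and 7172 RPKM in A. arenosa and 1637, 6552 and 14249 RPKM in A. thaliana. LHCB1.1 had 554, 2649 and 3608 RPKM in the F1, 5328 RPKM in F8 and 5955 RPKM in A. suecica, against 2354, 2938 and 3078 RPKM in A. arenosa and 424, 4017 and 8886 RPKM in A. thaliana. LHB1B1 had 437, 2318 and 4009.7 RPKM in the F1, 3894 RPKM in F8 and 2156 RPKM in A. suecica, against 3779, 3436 and 2941 RPKM in A. arenosa and 1212, 3198 and 5427 RPKM in A. thaliana. For all 3, the A. arenosa columns lay inside the range of the A. thaliana columns.

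LHCB2, the subunit phosphorylated in state transitions, supplied less transcript than LHCB1 in every library. It supplied more than LHCB3 in each except A. thaliana replicate 1 (4.8% against 5.1% of the LHCII sum). LHCB2.1 had 247, 1492 and 3097 RPKM in the F1, 3121 RPKM in F8 and 4666 RPKM in A. suecica, against 4648, 4437 and 4588 RPKM in A. arenosa and 197, 2006 and 3950.2 RPKM in A. thaliana. Its A. arenosa columns all lay above those of A. thaliana and the F1. LHCB2.2 had 229.6, 1452 and 2569.6 RPKM in the F1, 2606 RPKM in F8 and 2908 RPKM in A. suecica, against 3084, 2694 and 2754 RPKM in A. arenosa and 261, 2739 and 4820.3 RPKM in A. thaliana. LHCB2.3, the lowest member in every F1, F8 and parental library, had 91.2, 823 and 1118 RPKM in the F1 and 944 RPKM in F8, against 1511, 1161 and 927 RPKM in A. arenosa and 93.4, 718 and 2032 RPKM in A. thaliana. In A. suecica LHCB2.3 had 4915 RPKM, the highest LHCB2 value of that library and above every parental column.

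LHCB3, the minor subunit, had 468, 2006 and 3648 RPKM in the F1, 4049 RPKM in F8 and 6370.1 RPKM in A. suecica, against 4109.9, 4243 and 3698 RPKM in A. arenosa and 584, 2892 and 5947 RPKM in A. thaliana. The A. thaliana columns again reached both below and above those of A. arenosa. The F8 totals lay inside the range of the parental columns for 9 of 9 genes, where this held for 68.7% of 10217 genes compared and 22.9% lay above, and those of A. suecica for 5 of 9 (51.4% of genes compared), with LHB1B2, LHCB2.1, LHCB2.3 and LHCB3 above it (40.1% of genes compared). The members' A. thaliana columns differ by a factor of 4.48 to 21.8. A total inside so wide a range says little about the F8 or A. suecica level. LHCB2 genes together made up 7.7%, 12.4% and 13.1% of the LHCII sum in the F1 columns, 10.5% in F8 and 16.9% in A. suecica, against 17.0%, 13.9% and 15.5% in A. arenosa and 4.8%, 12.6% and 13.2% in A. thaliana. The lowest LHCB2 shares came from the F1 and A. thaliana columns with the lowest LHCII sums.

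**Figure D3:**
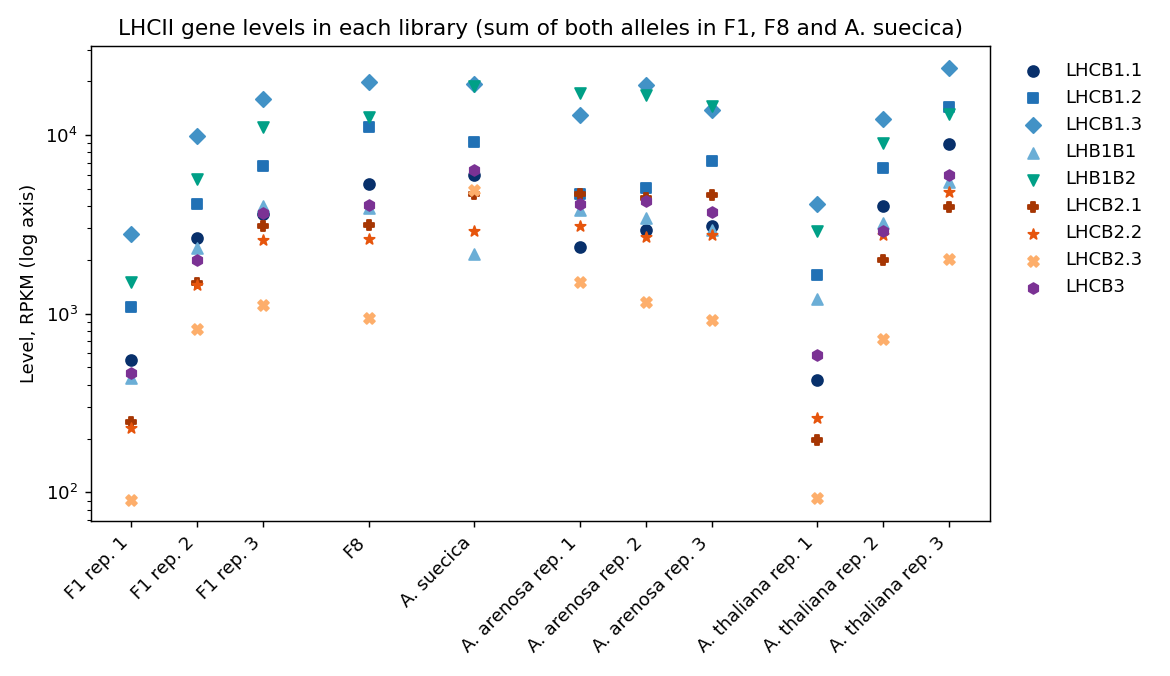
RPKM (log axis) of each LHCII gene in each library, with both alleles added in the F1, F8 and A. suecica. Per gene, the ratio of the highest to the lowest column is 5.73 to 12.5 in the F1, 1.05 to 1.63 in A. arenosa and 4.48 to 21.8 in A. thaliana.

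LHCB1.3 or LHB1B2 stood first in every library. In A. arenosa LHB1B2 averaged 16145 ± 1442 RPKM and LHCB1.3 15212 ± 3290.5 RPKM (SD, n = 3), so these 2 genes, which follow each other in the order of levels, did not differ beyond their spread. In A. thaliana LHCB1.3 was first in each column, with 4109, 12249.9 and 23805 RPKM against 2909, 9038 and 13022 RPKM for LHB1B2. Their means were 13388 ± 9897 RPKM and 8323 ± 5095 RPKM (SD, n = 3). These SDs hold the differences between columns, which both genes share, and do not measure the difference between the genes within a column. LHCB2.1 had rank 4 of the 9 in each A. arenosa library and rank 8 in each A. thaliana library. In A. suecica LHB1B1 was last and LHCB2.3 had rank 6, whereas LHCB2.3 was last in every other library. The log2 profile of each gene over the 11 libraries had a Pearson correlation with the mean of the other 8 members of 0.881 (LHB1B1) to 0.996 (LHCB3). These values carry no test, and genes within a cluster may share reads.

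The comparison of the parents asks how far the species differ, and it is the reference against which the allotetraploids are read. No LHCII gene passed the test in it (0 of 9; limma, Benjamini-Hochberg adjusted p below 0.05; 0 of 9 also at an unadjusted p under 0.05 or without limma's variance trend), where 12.5% of 12740 genes tested were higher in A. arenosa and 4.77% lower. The median log2 difference of the members (A. arenosa minus A. thaliana) was 0.89, against 0.31 over all genes. LHCB2.1 had the largest, 1.97 (SE 1.099, limma adjusted p = 0.26), followed by LHB1B2 with 1.202 (SE 0.82, limma adjusted p = 0.35). These were the 2 members whose columns did not overlap between the species, A. arenosa being higher, where 28.6% of genes tested did not overlap in that direction and 10.3% in the other. The remaining values were 1.19 for LHCB2.3, 0.91 for LHCB2.2, 0.89 for LHCB3, 0.50 for LHCB1.3, 0.29 for LHB1B1, 0.16 for LHCB1.1 and 0.05 for LHCB1.2, with limma adjusted p of 0.47 to 0.98.

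The intervals of these differences were wide. On the log2 scale the SD of LHCB1.1 was 0.21 in A. arenosa and 2.27 in A. thaliana (n = 3 each). The 95% interval for LHCB1.1 ran from -2.48 to 2.80 and that for LHB1B2 from -0.73 to 3.14, so differences of several fold in either direction for LHCB1.1 lie inside it. Without A. thaliana replicate 1, 7 of the 9 differences changed sign, and LHCB1.1 had -1.11 and LHCB1.2 -0.81, while LHB1B2 (0.57) and LHCB2.1 (0.69) stayed positive. Without A. thaliana replicate 3, LHCB2.1 had 2.85 and LHB1B2 1.65. All genes together had a median parental difference of 0.31; after centring each column on its median gene, LHCB1.1 (-0.11) and LHCB1.2 (-0.23) changed sign, and the calls over all genes moved to 1020 higher and 918 lower, against 1588 and 608 as deposited.

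In the F1, where both alleles share the same nucleus and the same library, the A. arenosa allele was the higher for every LHCII gene in every column. All 9 genes passed the test toward the A. arenosa allele (9 of 9; limma on the log2 ratio within each library, Benjamini-Hochberg adjusted p below 0.05), where 22.6% of 8287 genes tested passed in that direction and 13% in the other (35.7% in either). The median ratio was 1.51 on the log2 scale for the members and 0.10 over all genes. Of the LHCII transcript sum, 79.9%, 76.4% and 77.4% came from A. arenosa alleles in F1 replicates 1, 2 and 3, against 56.6%, 59.0% and 60.2% of the summed RPKM of all genes compared. The share was thus nearly the same in columns whose LHCII sums were far apart.

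LHB1B2 had the most unequal alleles. Its A. arenosa allele had 1444, 5289 and 10748 RPKM in F1 replicates 1, 2 and 3, and its A. thaliana allele 67.1, 405 and 346 RPKM. The A. arenosa allele supplied 95.6%, 92.9% and 96.9% of the LHB1B2 total, a mean log2 ratio of 4.36 (SE 0.23, limma adjusted p = 0.0013). The A. thaliana allele of LHB1B2 was lower than that of its neighbour LHB1B1 in F1 replicates 1, 2 and 3, while its A. arenosa allele was the higher of the pair. LHB1B1 had 306, 1630.1 and 3442 RPKM from the A. arenosa allele, against 131, 688 and 568 RPKM from the A. thaliana allele, giving a mean log2 ratio of 1.68 (SE 0.29, limma adjusted p = 0.011). Because the pair shares reads, both genes were also added, which gave log2 ratios of 3.13, 2.66 and 3.96 in the F1 columns.

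Alleles of the chromosome 1 cluster were less unequal. For LHCB1.3 the A. arenosa allele had 2125, 7526 and 10890.1 RPKM and the A. thaliana allele 651, 2307 and 5023 RPKM, a mean log2 ratio of 1.51 (SE 0.14, limma adjusted p = 0.0031). LHCB1.1 had 471, 2053 and 2481 RPKM from the A. arenosa allele, against 82.8, 597 and 1127 RPKM from the A. thaliana allele. Its log2 ratio of 1.80 (SE 0.25, limma adjusted p = 0.0063) averaged columns at 2.49, 1.78 and 1.14. LHCB1.2 had 769.9, 2594 and 4848 RPKM from the A. arenosa allele, against 326, 1505 and 1850.1 RPKM from the A. thaliana allele, giving a mean log2 ratio of 1.14 (SE 0.14, limma adjusted p = 0.0049). Added together, these genes had log2 ratios of 1.67, 1.46 and 1.19.

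Among LHCB2 genes, LHCB2.1 stood apart from its near-identical copy. Its A. arenosa allele had 217, 1232 and 2677 RPKM and its A. thaliana allele 30.3, 260.1 and 420.1 RPKM, a mean log2 ratio of 2.57 (SE 0.15, limma adjusted p = 0.0016). LHCB2.2 had 169.9, 902 and 1744 RPKM from the A. arenosa allele, against 59.7, 550.4 and 826 RPKM from the A. thaliana allele, giving a mean log2 ratio of 1.09 (SE 0.17, limma adjusted p = 0.0088). The ratio of LHCB2.1 was the larger in each column, and the sums of the pair gave 2.09, 1.40 and 1.83. LHCB2.3, which shares no 60-base window with another member, had 63.4, 519.7 and 694 RPKM from the A. arenosa allele, against 27.9, 304 and 423 RPKM from the A. thaliana allele. Its log2 ratio of 0.88 (SE 0.15, limma adjusted p = 0.010) was the smallest of the 9, and without F1 replicate 2 its limma adjusted p was 0.065.

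LHCB3, the other gene with no shared window, had 353, 1468 and 2521 RPKM from the A. arenosa allele, against 114, 538 and 1127 RPKM from the A. thaliana allele. Its mean log2 ratio was 1.41 (SE 0.13, limma adjusted p = 0.0031). Taking the alleles as separate groups, without pairing them within a library, the limma test called LHB1B2 alone (1 of 9), where 9.52% of the 8287 genes passed in that direction and 6.07% in the other. The F1 columns differ far more in level than in ratio. How far a mapping preference for one species contributes to the ratios was not tested, and the median ratio over all genes was 0.15, 0.12 and 0.08 in F1 replicates 1, 2 and 3.

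**Figure D4:**
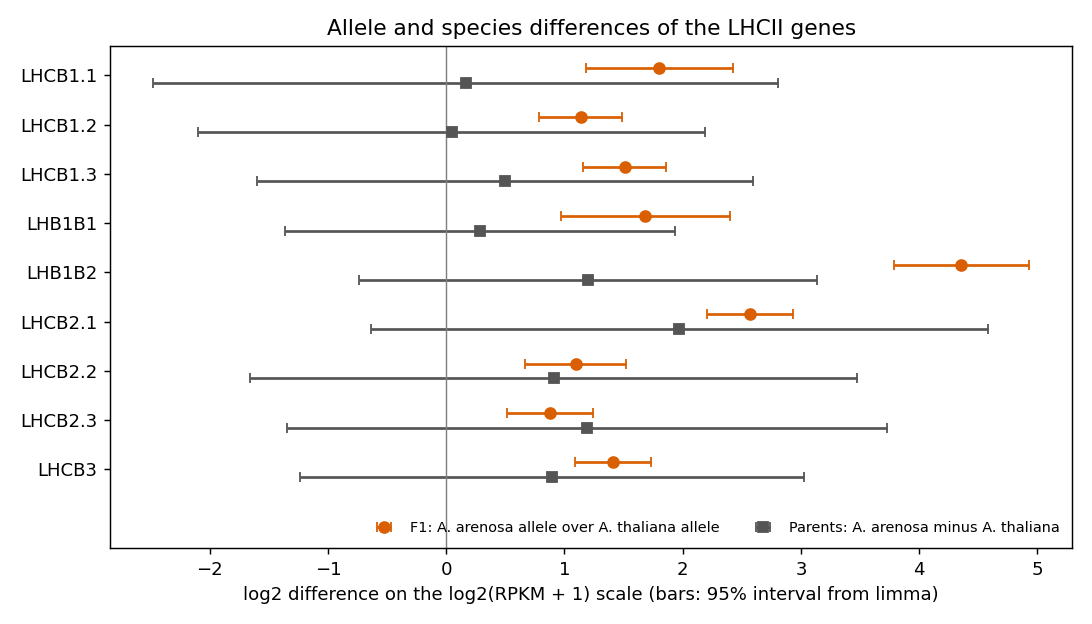
Mean log2 ratio of A. arenosa to A. thaliana allele in the F1 (circles) and log2 difference of A. arenosa minus A. thaliana plants (squares) for each LHCII gene, with 95% intervals from limma (n = 3 columns). The F1 intervals all lie above 0, and the parental intervals all include 0.

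In F8 and A. suecica the alleles were closer to equal for most members, and with 1 library each these are sizes without a test. From the A. arenosa alleles came 61.4% of the LHCII sum in F8 and 56.8% in A. suecica, below the 76.4% to 79.9% of the F1 columns. Over all genes compared, the share was 52.4% in F8 and 52.6% in A. suecica. The median log2 ratio of the members was 0.18 in F8 and -0.29 in A. suecica, against 1.62, 1.45 and 1.16 in the F1 columns. Over all genes it was 0.03 in F8 and -0.03 in A. suecica. The F8 ratio lay below each F1 column for 8 of 9 members, where this held for 32.8% of all genes compared, and above each for 0 of 9 (24.7% of all genes). In A. suecica it lay below each F1 column for 7 of 9 (39.2% of all genes) and above for 1 of 9 (31.9%), which was LHB1B1 with an A. thaliana allele listed at 0. Set against F1 replicate 3 alone, the F1 column whose values are written like those of F8 and A. suecica, the ratio was lower for 9 of 9 members in F8 (52.1% of all genes) and 8 of 9 in A. suecica (53.4%).

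LHB1B2 kept a strong excess of its A. arenosa allele in all allotetraploids. Its A. arenosa and A. thaliana alleles had 11646 and 1004 RPKM in F8, a log2 ratio of 3.53, and 17446 and 1258 RPKM in A. suecica, a log2 ratio of 3.79. LHB1B1 had 3129 RPKM from the A. arenosa allele, against 765 RPKM from the A. thaliana allele in F8, a log2 ratio of 2.03. In A. suecica its A. arenosa allele had 2156 RPKM and its A. thaliana allele was listed at 0, so no ratio is given. These were the 2 members with an A. arenosa allele at least 2-fold higher in F8 (13.5% of all genes) and in A. suecica (14.4%), counting the allele listed at 0. The pair added together had log2 ratios of 3.06 in F8 and 3.96 in A. suecica, where the F1 columns had 2.66 to 3.96.

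The chromosome 1 genes had alleles closer to equal in F8, with log2 ratios of 0.51 for LHCB1.1, 0.18 for LHCB1.2 and -0.06 for LHCB1.3. In A. suecica their A. thaliana alleles were the higher, with log2 ratios of -0.52, -0.75 and -0.29 in the same order. LHCB1.3 shows this in levels. Its A. arenosa and A. thaliana alleles had 9637 and 10041 RPKM in F8 and 8673 and 10586 RPKM in A. suecica. Added together, the cluster had log2 ratios of 0.10 in F8 and -0.45 in A. suecica.

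LHCB2.1 and LHCB2.2 moved furthest toward the A. thaliana allele in A. suecica. LHCB2.1 had 1302 RPKM from the A. arenosa allele, against 3364 RPKM from the A. thaliana allele there, a log2 ratio of -1.37, and LHCB2.2 had 509 and 2399.7 RPKM, a log2 ratio of -2.24. These were the 2 members in which the A. thaliana allele was higher by 2-fold or more in A. suecica (12.7% of all genes); F8 had 0 (8.88%). In F8 the log2 ratio was 0.79 for LHCB2.1 and -0.42 for LHCB2.2, and the pair together had 0.23 in F8 and -1.67 in A. suecica. LHCB2.3 had -0.43 in F8 and 0.35 in A. suecica, where the A. arenosa allele had 2751 RPKM and the A. thaliana allele 2164 RPKM. LHCB3 had -0.08 in F8 and 0.19 in A. suecica. The A. arenosa alleles gave 36.5% of the LHCB2 sum in A. suecica and 52.4% in F8, against 79.3%, 70.4% and 75.4% in the F1 columns.

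**Figure D5:**
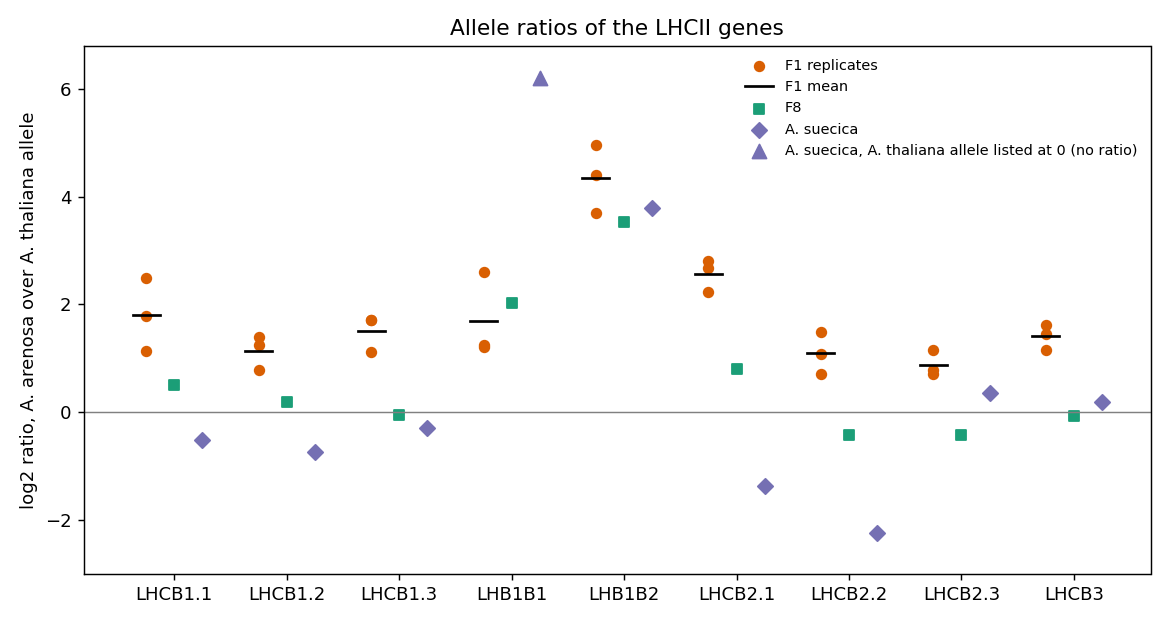
Log2 ratio of A. arenosa to A. thaliana allele of each LHCII gene in the 3 F1 columns (circles, with their mean as a bar), F8 (squares) and A. suecica (diamonds). The triangle marks LHB1B1 in A. suecica, whose A. thaliana allele is listed at 0, and stands at an arbitrary height. LHB1B2 stays between 3.53 and 4.95 throughout, while LHCB2.2 reaches -2.24 in A. suecica.

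The mid-parent value was the log2 of the mean of both parents, each first averaged over its columns on the log2 scale. Set against it, the F1 total was lower for each of the 9 genes. None passed the limma test (0 of 9 at a Benjamini-Hochberg adjusted p below 0.05, 0 of 9 also at an unadjusted p under 0.05). Over 10415 genes tested, 0.106% lay above the mid-parent value by this test and 0 below, and 1836 had an unadjusted p under 0.05 in either direction. The members' values ran from -1.45 for LHCB2.1 (SE 1.08, limma adjusted p = 0.51) to -0.59 for LHCB1.1 (SE 0.96, limma adjusted p = 0.78), with a median of -0.95 against 0.17 over all genes. The 95% interval for LHB1B2 ran from -3.18 to 0.51. With the replicate number as a block, 0.173% of genes lay above and 0 below, and again 0 of 9 members passed in limma. Without F1 replicate 1, the column with the lowest LHCII sum, LHCB1.1 had 0.24 and LHCB2.3 had 0.18, and LHB1B2 had -0.54.

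The trans term subtracts the allele ratio of the F1 from the parental difference and asks whether the alleles differ by another amount when they share a nucleus. It shares the parental columns with the parental difference and the mid-parent comparison, and the F1 ratios with the allele test. No LHCII gene passed in limma (0 of 9; 1 at an unadjusted p under 0.05, LHB1B2), where 0.526% of 10083 genes tested passed above 0, 0.317% below and 0.843% in either direction. LHB1B2 had the largest value, -3.15 (SE 0.82, limma adjusted p = 0.11), since its log2 allele ratio was 4.36 in the F1 and its parental difference 1.202. This gene passed without A. thaliana replicate 1 (-3.79, limma adjusted p = 0.0074), without A. thaliana replicate 3 (-2.71, limma adjusted p = 0.044) and with limma without a variance trend (adjusted p = 0.043). LHCB1.1 had -1.64, LHB1B1 -1.40, LHCB1.2 -1.09, LHCB1.3 -1.01, LHCB2.1 -0.60, LHCB3 -0.51, LHCB2.2 -0.18 and LHCB2.3 0.31, with limma adjusted p of 0.36 to 0.95. With the replicate number as a block, 1.06% of genes passed above 0, 0.426% below and 1.49% in either direction, and 0 of 9 members in limma (adjusted p = 0.16 for LHB1B2).

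Antenna proteins outside the trimer leaned the same way in the F1. This list of 12 holds the photosystem I antenna (LHCA1 to LHCA4), LHCA5 and LHCA6 (which link photosystem I to the NDH complex), and LHCB4 to LHCB7, of which LHCB4, LHCB5 and LHCB6 are the minor antenna of photosystem II. Of 11 tested, 9 had the higher A. arenosa allele by the limma test, where 22.6% of all genes did and 13% had the lower: LHCA2 (log2 ratio 1.599), LHCB4.3 (1.27), LHCB4.1 (1.04), LHCB6 (0.97), LHCA1 (0.87), LHCB5 (0.78), LHCA4 (0.77), LHCA3 (0.71) and LHCA6 (0.60). When 1 F1 column was left out, the calls of LHCA1, LHCA3, LHCA4 and LHCA6 were lost in at least 1 case, with limma adjusted p of up to 0.073, 0.093, 0.12 and 0.28. LHCA5 was the 1 gene called the other way (-1.38, SE 0.15, limma adjusted p = 0.0039). The median of the 11 was 0.78, below the 1.51 of the trimer genes, a difference that was not tested. Between the parents LHCB4.3 alone of the 12 passed (12.5% of all genes in that direction), at 1.57 (SE 0.40, limma adjusted p = 0.039), and in 7 of 13 alternative settings it did not. In F8 the log2 ratios of the 12 ran from -1.25 for LHCA5 to 1.67 for LHCB4.3, with LHCA2 at 0.52 and LHCB5 at -0.87. In A. suecica they ran from -4.99 for LHCB4.3 to 0.98 for LHCB7. The LHCB4.3 value there rests on an A. arenosa allele near the floor (0.985 RPKM, against 62.1 RPKM from the A. thaliana allele), so its size is uncertain.

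Among genes that make, insert or regulate LHCII, F1 alleles were called unequal in both directions. The list of 17 covers chlorophyll b synthesis and breakdown, the chloroplast signal recognition particle, the kinase and phosphatase of state transitions, a photosystem II core kinase, and transcription factors. Of 15 tested in the F1, 5 had the higher A. arenosa allele by the limma test and 3 the lower, where 22.6% and 13% of all genes did. The 5 were PSBS, the sensor of photoprotective quenching (0.98), LTD, which hands LHC proteins to the targeting pathway (0.87), the chlorophyll b reductase gene NYC1 (0.84), the LHCII kinase gene STN7 (0.82) and the targeting receptor gene CPFTSY (0.60). The A. thaliana allele was the higher for 3: CPSRP43, the chaperone of LHC proteins in the stroma (-1.47), NOL, partner of NYC1 (-0.62), and STN8, a kinase of the photosystem II core (-0.48). With 1 F1 column left out, the limma adjusted p reached 0.070 for PSBS, 0.080 for LTD, 0.13 for NYC1, 0.14 for STN7, 0.20 for CPFTSY, 0.23 for STN8 and 0.25 for NOL. HY5 and SGR1 are not in the F1 table. No gene of this list passed between the parents in limma (0 of 16; 1 at an unadjusted p under 0.05, CPFTSY), where PSBS had 1.24 (SE 0.67, limma adjusted p = 0.25) and CPSRP43 -0.66 (SE 0.55, limma adjusted p = 0.44). Without A. thaliana replicate 3 PSBS passed, at 1.93 (limma adjusted p = 0.016). In the mid-parent comparison and the trans term, 0 genes of either list passed in limma, with or without a variance trend, and at an unadjusted p under 0.05 there was 1, the antenna gene LHCB7 in the trans term (1.11, SE 0.47, limma adjusted p = 0.26).

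The genes whose totals varied most like the members over the 11 libraries were other photosynthesis genes. Among 9913 genes, the highest Pearson correlations with the mean log2 level of the 9 members were 0.989 for LHCB6, 0.988 for LHCA1, 0.984 for LHCA4, 0.983 for LHCB5 and 0.982 for PSAF, a photosystem I subunit. These values describe the same 11 libraries, whose depth and time of collection are unknown, and carry no test.

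The 250 bases upstream of each A. thaliana transcript start were searched for letters known from light and clock control. The CCA1-binding site (AAAAATCT or AACAATCT, both strands) occurred in 2 of 9 members, LHCB1.1 and LHB1B1, and in 8.385% of 27443 promoters of the same length. CCAATC, letters reported among targets of the GLK transcription factors, occurred in 5 of 9 (LHCB1.3, LHB1B2, LHCB2.1, LHCB2.2 and LHCB2.3) and in 10.23% of promoters. The G-box CACGTG occurred in LHCB2.3 (6.486% of promoters), the I-box core GATAAG in LHCB2.1 (12.29%), and the evening element AAAATATCT in 0 of 9 (2.361%). Windows of LHCB1.2 and LHCB3 held none of these letters, and that of LHCB3 overlaps the neighbouring gene AT5G54260. A match is a description of the letters and not a binding site.

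The 4 windows below belong to the 2 members with the CCA1-binding letters and to the 2 whose columns did not overlap between the parents. They are RefSeq's on TAIR10.1, 5′ to 3′ on the gene's strand and ending 1 base before the transcript start, with capitals for the letters found. LHCB1.1 is read from chr1:10475970-10476219 (minus strand), LHB1B1 from chr2:14524357-14524606 (plus strand), LHB1B2 from chr2:14523569-14523818 (minus strand) and LHCB2.1 from chr2:1824481-1824730 (minus strand).
LHCB1.1: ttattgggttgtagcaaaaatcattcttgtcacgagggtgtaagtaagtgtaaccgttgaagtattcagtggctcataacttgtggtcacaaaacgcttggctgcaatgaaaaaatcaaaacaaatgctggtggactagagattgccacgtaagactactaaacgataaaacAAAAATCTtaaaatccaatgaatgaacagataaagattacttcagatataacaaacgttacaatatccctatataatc
LHB1B1: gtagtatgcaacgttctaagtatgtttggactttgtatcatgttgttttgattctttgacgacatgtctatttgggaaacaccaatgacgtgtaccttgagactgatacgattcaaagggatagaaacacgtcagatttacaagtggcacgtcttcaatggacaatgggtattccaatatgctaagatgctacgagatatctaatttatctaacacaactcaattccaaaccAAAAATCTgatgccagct
LHB1B2: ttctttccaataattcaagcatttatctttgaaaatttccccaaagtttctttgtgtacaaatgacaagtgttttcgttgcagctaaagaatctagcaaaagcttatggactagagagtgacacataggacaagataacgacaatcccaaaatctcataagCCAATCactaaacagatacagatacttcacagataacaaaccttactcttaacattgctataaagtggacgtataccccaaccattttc
LHCB2.1: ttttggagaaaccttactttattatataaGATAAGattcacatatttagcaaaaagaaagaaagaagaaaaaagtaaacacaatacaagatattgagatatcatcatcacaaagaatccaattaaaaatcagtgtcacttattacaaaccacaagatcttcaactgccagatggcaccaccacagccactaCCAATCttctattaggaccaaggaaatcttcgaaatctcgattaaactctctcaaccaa

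In LHCB1.1 the CCA1-binding letters lie at positions -78 to -71 from the start, and in LHB1B1 at -18 to -11. CCAATC lies at -89 to -84 in LHB1B2 and at -59 to -54 in LHCB2.1, whose GATAAG lies at -221 to -216. The neighbours LHB1B1 and LHB1B2 thus hold different letters among those searched. The A. arenosa promoters were not analysed here, so nothing is known from these data about the letters of the A. arenosa alleles.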

How the data were processed

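The values are RPKM, computed by the authors before deposit for transcripts in the parents and for each allele in the allotetraploids, per the file headers; reads were placed on TAIR 9, per the submitters' processing notes. The aligner was not given in the sources used here, nor how reads were counted or divided between alleles. The lowest values fell on whole multiples of 1 read in 13.9% to 44.6% of cases per parental column (tolerance 2%), so reads were not recovered and depth is unknown.

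Each gene was represented by 1 transcript, listed in every table if possible, then by the highest mean. The 6 transcripts at ribosomal RNA genes (within 1000 bases) were left out. Values were taken as log2(RPKM + 1), for genes with at least 5 RPKM in the larger group. Testing was by limma 3.58.1 (R 4.3.3) with a variance trend, two-sided, adjusted by Benjamini-Hochberg over all genes at 0.05. The F1 test used ratios within a library, the mid-parent test a delta-method spread, and the trans term separate spreads for parents and alleles. F8 and A. suecica have sizes only, with 2-fold as the limit. Replicate numbers are unexplained in the labels and were no block in the tests. By the correlation of deviations from group means, same-numbered columns paired the F1 with A. arenosa (0.28, 0.31 and 0.28). They paired the F1 with A. thaliana only in part (0.53, -0.25 and 0.24), with replicate 2 negative. The same held for the parents with each other (0.056, -0.16 and 0.19). Blocked fits therefore stand beside the F1 comparisons. Alternatives covered pseudocount, filter, centring, transcript choice, variance trend, pairing and leaving out each column.

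Named genes are the 9 members, the list genes that passed a test or stood highest or lowest, and the 5 genes most like the members. The antenna genes in F8 and A. suecica were named after their values were seen. Members and lists were chosen with earlier results of these data known. Sequences and positions are RefSeq's for TAIR10.1. Python 3.11.15, numpy 2.4.6, pandas 2.3.3, Biopython 1.88 and matplotlib 3.10.9 did the rest.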

Additional observations from a re-analysis of the deposited data

Results flagged for a closer look

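Some members had the lower A. arenosa allele in F8 or A. suecica although the A. arenosa allele was the higher in each of the 3 F1 columns. In F8 these were LHCB1.3 (log2 ratio -0.059), LHCB3 (-0.076), LHCB2.2 (-0.42) and LHCB2.3 (-0.43). In A. suecica they were LHCB1.3 (-0.29), LHCB1.1 (-0.52), LHCB1.2 (-0.75), LHCB2.1 (-1.37) and LHCB2.2 (-2.24). F8 and A. suecica have 1 library each, so the differences from the F1 were not tested, and the F8 values of LHCB1.3 and LHCB3 lie close to equal alleles. How many of all genes changed sign in this way was not counted. A ratio below each F1 column was common, at 32.8% of all genes compared in F8 and 39.2% in A. suecica.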

How the results depend on the processing

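The count of members called in the parental comparison (0) and in the mid-parent comparison (0) was the same under every alternative run. Without pairing alleles within a library (no replicate block), 1 of 9 passed in the F1, and 1292 genes in all, against 2957. In the trans term, 1 member (LHB1B2) passed with limma without a trend, and 0 to 1 when a column was left out. Centring on the median gene reversed the parental difference of LHCB1.1 (-0.11) and LHCB1.2 (-0.23). Other reversals came from leaving out 1 column, and the cause was not tested. The parental difference then ranged from -1.11 to 1.09 for LHCB1.1, -0.81 to 0.75 for LHCB1.2 (also -0.14 without A. arenosa replicate 3), -0.19 to 1.08 for LHCB1.3, -0.31 to 0.77 for LHB1B1, -0.36 to 1.75 for LHCB2.2, -0.038 to 2.18 for LHCB2.3 and -0.048 to 1.62 for LHCB3, lowest without A. thaliana replicate 1, and from -0.94 to 0.11 for LHCA5, highest without A. thaliana replicate 3. Against the mid-parent value, LHCB1.1 ranged from -1.33 to 0.24 and LHCB2.3 from -1.62 to 0.18, highest without F1 replicate 1. Trans terms ranged from -1.88 to 0.28 for LHCB2.1, -1.45 to 0.65 for LHCB2.2 (0.24 without A. thaliana replicate 2, 0.015 without F1 replicate 1), -0.92 to 1.295 for LHCB2.3 and -1.46 to 0.22 for LHCB3, highest without A. thaliana replicate 3.

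Counts over all genes ranged from 1045 to 3856 between the parents (2196 as reported, 3346 without the filter) and from 929 to 2736 in the F1 with a column left out. They ranged from 0 to 51 against the mid-parent value (11 as reported) and from 12 to 985 in the trans term (85 as reported). The numbers paired the columns of the F1 and A. arenosa, each of which correlated best with its own number. With A. thaliana they did so in part. F1 replicates 1 and 3 correlated best with the A. thaliana column of their number (0.53 and 0.24), but F1 replicate 2 with A. thaliana replicate 3 (0.44). Of the A. arenosa columns, replicate 3 alone correlated best with the A. thaliana column of its number (0.19). With the replicate block, 1902 genes passed between the parents, 18 against the mid-parent value and 150 in the trans term, and 0 members in each. Depth is unknown, and with it the precision of a single value.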
